A study of Mus musculus with 9 samples.

Results

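Motile cilia are built from a large set of dedicated proteins, and 85 of the 56263 rows of the gene table named such proteins by their symbols. The 85 genes were the rows that began with Dnah, Dnai or Drc and a digit, with Dnaaf, Cfap, Rsph or Tekt, or with Ift and a digit. They comprised 16 Dnah, 3 Drc, 5 Dnaaf, 33 Cfap, 8 Rsph, 5 Tekt and 15 Ift rows, and 0 rows began with Dnai and a digit, because the table names those dynein intermediate chains Dnaic1 and Dnaic2. RNA had been sequenced from lung tissue of wild-type BALB/c mice in 3 groups of 3 libraries. The mice were male and 6 to 8 weeks old when purchased, and the experiment that followed lasted 42 days. The control group (C1 to C3) received vehicle. The model group (M1 to M3) received 20 µg of lipopolysaccharide (LPS) into the trachea on days 1 and 14, cigarette smoke on the other days, and vehicle. The QJHTD group (Q1 to Q3) had the same smoke and LPS together with Qing-Jin-Hua-Tan decoction, a herbal prescription for lung disease. It was given into the stomach at the high dose of the study. The labels do not state that each library came from a separate mouse, so p-values here measure the spread between these libraries.

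The core of a motile cilium, the axoneme, has a ring of doublet microtubules around a central pair. Outer and inner dynein arms are motors that slide the doublets, radial spokes and the central apparatus control them, and the nexin-dynein regulatory complex links neighbouring doublets. Intraflagellar transport (IFT) trains carry building blocks along the cilium, the IFT-B complex towards the tip and the IFT-A complex back to the base. In the lung, motile cilia stand on the multiciliated cells of the airways and move mucus. IFT proteins also serve the single, mostly immotile primary cilium that many other cell types carry.

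The promoters of 4 genes are shown because they carry the contrasts described further on. Cfap161 had the largest fall of the 77 genes tested, Cfap298 held the only pairs of facing half-sites besides Ift57, and Ift43 and Ift20 had the largest and the smallest falls of the transport genes. Each runs from 250 bases before to 50 bases after the transcription start in RefSeq on build GRCm38.p6, 5′ to 3′ in the direction of transcription, and the reference strain is not the strain sampled. Capitals mark half-sites of the X-box, the element that RFX factors of ciliated cells bind.
Cfap161 (chr7:83794790-83795089, minus strand): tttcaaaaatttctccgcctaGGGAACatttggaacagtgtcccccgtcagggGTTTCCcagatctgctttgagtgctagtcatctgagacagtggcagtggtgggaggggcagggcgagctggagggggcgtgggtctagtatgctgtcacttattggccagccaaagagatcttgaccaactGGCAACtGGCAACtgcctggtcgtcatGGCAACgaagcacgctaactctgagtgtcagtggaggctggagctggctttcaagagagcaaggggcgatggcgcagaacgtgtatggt
Cfap298 (chr16:90934800-90935099, minus strand): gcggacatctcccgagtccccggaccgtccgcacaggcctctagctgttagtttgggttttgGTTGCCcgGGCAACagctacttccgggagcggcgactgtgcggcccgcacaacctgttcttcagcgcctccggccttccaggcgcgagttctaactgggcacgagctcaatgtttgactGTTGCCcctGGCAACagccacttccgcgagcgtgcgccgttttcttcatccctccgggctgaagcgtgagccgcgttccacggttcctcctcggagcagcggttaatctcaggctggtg
Ift43 (chr12:86082311-86082610, plus strand): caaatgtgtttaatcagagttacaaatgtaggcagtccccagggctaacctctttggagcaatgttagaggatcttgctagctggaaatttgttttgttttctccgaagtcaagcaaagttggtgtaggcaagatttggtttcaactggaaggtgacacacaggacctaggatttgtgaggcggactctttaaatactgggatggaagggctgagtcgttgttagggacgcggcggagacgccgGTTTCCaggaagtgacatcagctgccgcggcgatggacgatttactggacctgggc
Ift20 (chr11:78536111-78536410, plus strand): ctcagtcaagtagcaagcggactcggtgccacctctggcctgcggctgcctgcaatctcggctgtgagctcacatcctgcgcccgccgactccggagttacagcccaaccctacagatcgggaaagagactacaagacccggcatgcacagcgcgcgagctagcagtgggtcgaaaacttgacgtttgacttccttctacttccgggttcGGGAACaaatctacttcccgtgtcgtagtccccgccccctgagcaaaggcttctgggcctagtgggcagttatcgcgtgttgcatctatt
A half-site was taken as GTTNCC or, on the other strand, GGNAAC, a choice made after the promoters had been inspected. RefSeq windows matched 68 of the 85 genes, and 52 of these (76.5%) held at least 1 half-site, against 45.5% of the 27025 windows of all genes and 47.9% of the windows of genes tested here. With the free base fixed, as GTTGCC or GGCAAC, which are a subset of the half-sites, the shares were 39.7% (27 of 68) and 12.7% of all genes. Facing half-sites, GTTNCC and then GGNAAC with 0 to 3 bases between them, occurred in 2.94% of the cilium genes, namely Cfap298 and Ift57, against 0.822% of all genes. The forkhead letters TGTTTAC, read on both strands, were present in 5.88% of the cilium genes and 3.55% of all genes. These matches describe letters in the windows, not bound sites. Cfap161 and Tekt1 each held 5 half-sites, the most of any cilium gene, and Ift43 and Ift20 held 1 each. The numbers did not sort by role, as Cfap126 and Tekt5 held 0 and Ift22 and Ift57 held 3 each. A link between half-sites and falls was not tested.

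Expression was given as TPM, a share of each library's transcripts corrected for gene length, which sums to the same total in every library, so depth is unknown. A gene was tested if 3 or more of the 9 libraries reached 1 TPM, which left 77 cilium genes among 16080 genes in all, and the test was limma on log2(TPM + 1) with Benjamini-Hochberg adjustment over all of them. Of the 77, 11 reached 1 TPM in fewer than 3 model and QJHTD libraries, 3 of them in none, and so passed mainly through the control group, where they were high. The filter thus favoured a fall in these 11, and they stay in every count out of the 77. Immunoglobulin and T-cell receptor gene segments took 36.2% to 43.7% of all TPM in the model and QJHTD libraries, against 0.296% to 0.605% in the controls. Over all genes tested the median log2 fold change between model and control was −0.47, so changes are read against that value. Ciliated cells were present by their markers in every library, with summed levels of 16 markers of 1813 to 2326 TPM in C1 to C3, 269 to 775 TPM in M1 to M3 and 310.0 to 508 TPM in Q1 to Q3. The sperm genes Tnp1, Prm2 and Odf1 were listed at 0 in all 9 libraries, and none of the 7 germ-cell markers passed the filter. Markers of other lung cells moved as well. Endothelial markers fell in 8 of 8 cases (median log2 fold change −2.34) and fibroblast and smooth muscle markers in 8 of 10 (median −2.15), the other 2, the collagen genes Col1a1 and Col1a2, being higher. Of 10 club-cell markers 6 fell (median −2.57) and the mucin gene Muc5b rose, and of 5 basal-cell markers 1 rose and 0 fell (median 1.01). All 8 neutrophil and all 8 plasma-cell markers rose, with medians of 4.32 and 5.06. Of 8 alveolar type 2 markers 3 fell (Sftpc, Sftpb and Lyz1) and 0 rose (median −0.17). The part of these shifts in the levels of the cilium genes was not tested.

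Cilium genes were lower in the lungs exposed to smoke and LPS. The 85 genes took 0.110% to 0.136% of all TPM in the control libraries and 0.0395% to 0.0744% in the model libraries. Of the 77 tested, 74 fell (96.1%), 0 rose, and Dnaaf3, Ift20 and Ift52 did not pass the test, whereas 56.5% of all genes tested fell and 16.6% rose. At an unadjusted p under 0.05 limma also gave 0 higher. The median log2 fold change of the cilium genes was −1.16, and model levels stood at a median of 35.8% of control (range 15.4% to 90.0%), against 68.1% over all genes tested. All 3 model libraries were below all 3 control libraries for 73 of the 77 genes, against 58.5% of all genes, and the 4 with overlapping groups were Ift20, Ift27, Cfap54 and Dnaaf3. In bulk lung tissue, fewer ciliated cells and less of these RNAs per cell cannot be told apart.

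**Figure D1:**
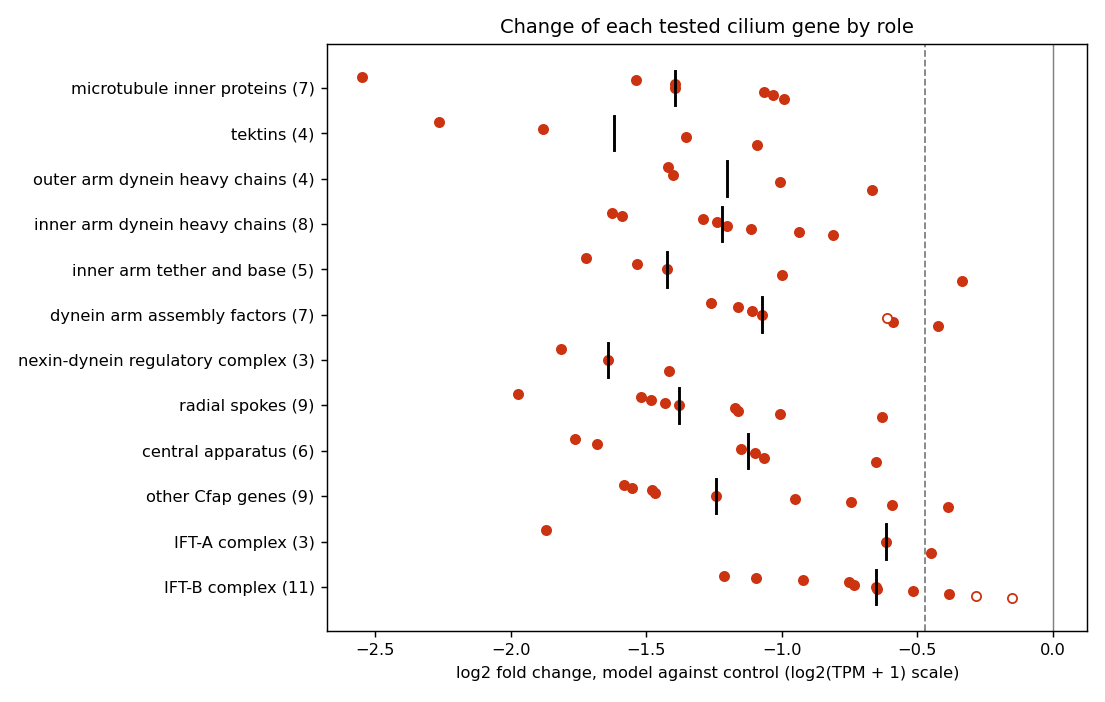
Log2 fold change between model and control for 76 of the 77 genes tested (the antisense gene Dnah2os is left out), 1 point a gene, grouped by role with the number tested in brackets. Filled points passed an adjusted p of 0.05, black bars are medians, and the dashed line is the median of all genes tested (−0.47). The tektins and the nexin-dynein regulatory complex have the lowest medians. The medians of the IFT complexes lie nearest to the dashed line. Ift43 lies far below that line, and the IFT genes, Ift81, Ift88 and Ift172 among them, overlap the range of the axoneme genes.

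How many of these genes were called depended on the scaling between libraries. After median-ratio rescaling, which brought the median of all genes close to 0, 45 of the 77 fell and 1 rose, against 29.6% of all genes that fell. Quantile normalization left 56 lower and 0 higher, against 38.6% of all genes lower. When segments, hemoglobin and mitochondrial genes were removed and TPM computed again (the recomputed TPM), 38 fell and 2 rose, against 24.7% lower among all genes tested. The median of the cilium genes under these 3 scalings was −0.76, −0.82 and −0.79. Of 51 genes named by rule that fell, 14 were no longer lower at an adjusted p under 0.05 under any of the 3 scalings (Cfap36, Cfap410, Cfap43, Cfap52, Cfap54, Cfap97, Dnaaf2, Dnaaf5, Dnah8, Ift122, Ift140, Ift46, Ift57 and Rsph3a), although Cfap43 passed as higher in the recomputed TPM. A further 6 were lost under median-ratio rescaling and in the recomputed TPM (Cfap126, Dnaaf1, Dnah1, Ift172, Rsph9 and Tekt4), and 6 in the recomputed TPM alone (Cfap298, Cfap69, Dnah12, Dnah3, Rsph1 and Rsph3b). Leaving out 1 library ended the calls of 11 (Cfap126, Cfap43, Cfap52, Cfap54, Cfap97, Dnaaf5, Dnah8, Ift122, Ift140, Ift46 and Ift57). Among genes with a mean of at least 5 TPM, 41 of 43 cilium genes fell, against 58.9% of all genes.

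The largest falls of single genes were in proteins of the doublet wall, Cfap161 and Tekt2. All 7 microtubule inner proteins tested fell, with a median log2 fold change of −1.39, and so did all 4 tektins, the filament proteins of the doublet wall, with a median of −1.62. Of the 7 inner proteins, 4 were lower after median-ratio rescaling and 4 in the recomputed TPM, against 29.6% and 24.7% of all genes. Cfap161, a protein inside the doublet, was at 23.5, 23.7 and 25.8 TPM in the control libraries, 3.34, 1.52 and 6.36 TPM in the model libraries and 1.86, 3.01 and 2.85 TPM in the QJHTD libraries. Its lowest control value was above the highest exposed value, and the log2 fold change of −2.55 ± 0.33 (SE) was the largest fall of the set (adjusted p = 0.000139). Tekt2 was at 12.8, 9.12 and 13.4 TPM in the control libraries, 1.35, 0.770 and 3.37 TPM in the model libraries and 1.79, 1.49 and 2.48 TPM in the QJHTD libraries. Tekt1 had 23.6, 22.4 and 24.1 TPM in the control libraries, 7.60, 2.23 and 9.36 TPM in the model libraries and 2.83, 5.41 and 4.78 TPM in the QJHTD libraries. Both fell, by 2.27 and 1.88 on the log2 scale, and in both M2 was the lowest of the model libraries and M3 the highest. Cfap126, which helps to place basal bodies at the cell surface, was the most abundant of the inner proteins in the control lungs, at 78.4 ± 17.2 TPM (SD, n = 3). It spread widely among the model libraries, from 13.2 TPM in M2 to 49.5 TPM in M3. Cfap20, which closes the junction between the paired microtubules, was steadier, at 23.4, 20.1 and 28.5 TPM in the model against 53.5, 42.8 and 53.5 TPM in the control libraries. Cfap45 and Cfap52, further inner proteins, had log2 fold changes of −1.39 and −0.99, the latter the smallest of the group. Tekt4 and Tekt5 changed by −1.35 and −1.09. Cfap77 shares 1000 bases on its own strand with Gm13394, which rose from 228 ± 26.8 to 559 ± 54.9 TPM (SD, n = 3), so its value of −1.54 is uncertain.

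Dynein heavy chains, the motor subunits, fell in all 12 tested cases, with a median log2 fold change of −1.22. In the recomputed TPM 7 were lower, against 24.7% of all genes. The outer arm chains of airway cilia, Dnah5, Dnah9 and Dnah11, all fell. Dnah5 stood at 5.73, 5.73 and 6.23 TPM in the control libraries, 2.13, 0.550 and 2.66 TPM in the model libraries and 0.950, 1.63 and 1.07 TPM in the QJHTD libraries. For Dnah9 the values were 6.64, 5.84 and 6.22 TPM in the control libraries, 2.10, 0.690 and 2.76 TPM in the model libraries and 1.09, 2.24 and 1.50 TPM in the QJHTD libraries. For both, every exposed library was below the lowest control, and the log2 fold changes were −1.40 ± 0.29 (SE) and −1.42 ± 0.28 (SE) with adjusted p of 0.00204 and 0.00168. Dnah11 fell from 2.77 ± 0.0436 to 0.950 ± 0.640 TPM (SD, n = 3). Dnah8, an outer arm chain known from sperm tails, departed from these. It was at 7.24, 4.02 and 5.44 TPM in the control libraries, 2.61, 3.08 and 3.51 TPM in the model libraries and 3.86, 5.34 and 3.45 TPM in the QJHTD libraries, and M2 was not its lowest model library. Its log2 fold change was −0.67 ± 0.20 (SE) between model and control (adjusted p = 0.0154) and −0.32 ± 0.20 (SE) between QJHTD and control, which did not pass (adjusted p = 0.187). The call between model and control was lost under the 3 scalings (−0.31 to −0.16, adjusted p = 0.161 to 0.542), without C1 (0.0552) and without M1 (0.0537). Dnah8 shares 2518 bases with Glo1 on the opposite strand, which went from 121 ± 4.83 TPM to 46.2 ± 8.19 TPM between these groups (SD, n = 3). Whether the counting used strand is not given in the sources used here, so reads of the pair cannot be told apart.

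Inner arm chains fell in 8 of 8 tested cases, with a median of −1.22. In the recomputed TPM 4 of them were lower, with a median of −0.92, against 24.7% of all genes lower. Counted here is Dnah2, which passed the filter mainly through the control group. Dnah6 was the most abundant, at 14.3, 12.1 and 14.6 TPM in the control libraries, 4.82, 1.65 and 6.39 TPM in the model libraries and 2.38, 3.68 and 2.88 TPM in the QJHTD libraries. The 3 control libraries lay close together and the 3 model libraries were spread out below them, with M2 lowest. Dnah3 and Dnah12 fell by 1.29 and 1.24 on the log2 scale. Dnah1, the chain with the smallest fall, changed by −0.81. Dnah7a had the largest fall, of 1.63, and its QJHTD libraries ran in another order, with Q1 highest at 1.61 TPM. Dnah7a, Dnah7b and Dnah7c are near copies of each other, so the split of reads among them is uncertain. The antisense gene Dnah2os lies within Dnah2 on the other strand. It fell from 5.34, 8.15 and 4.17 TPM in the control libraries to 1.02, 1.82 and 1.79 TPM in the model libraries, beside a fall of Dnah2 from 2.13 ± 0.285 to 0.447 ± 0.169 TPM (SD, n = 3). C2 was the highest control library for both, and without strand their reads cannot be told apart.

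The tether and base of the inner arms comprised 5 genes, all of which fell, with a median of −1.42. Cfap57, at the base of an inner arm, fell furthest, from 5.73, 5.38 and 6.36 TPM in the control libraries to 1.15, 0.320 and 2.09 TPM in the model libraries (log2 fold change −1.72 ± 0.26 (SE)). Cfap44 and Cfap100 changed by −1.53 and −1.42. Cfap43, the partner of Cfap44 in the tether of the inner arm head, did not follow it. Its levels were 18.6, 17.4 and 20.4 TPM in the control libraries, 15.8, 12.6 and 15.8 TPM in the model libraries and 11.4, 12.3 and 13.3 TPM in the QJHTD libraries, and its log2 fold change of −0.34 ± 0.11 (SE) (adjusted p = 0.0252) was the smallest fall outside the IFT genes. That direction turned to 0.18, 0.06 and 0.28 under median-ratio rescaling, under quantile normalization and in the recomputed TPM. Cfap43 shares 9821 bases with Gsto1 on the opposite strand, with control, model and QJHTD means of 101 ± 38.8, 111 ± 35.7 and 76.05 ± 18.6 TPM (SD, n = 3), and its part in the level of Cfap43 was not tested.

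Dynein arm assembly factors work in the cytoplasm, where they fold and join the arms before transport. Of 7 tested, 6 fell, with a median of −1.07. After median-ratio rescaling 3 were lower, after quantile normalization 4, and in the recomputed TPM 2, with a median of −0.49. Of all genes, 29.6%, 38.6% and 24.7% were lower under these scalings, and the 2 of 7 was near the last share. Cfap298, whose promoter carries the 2 facing pairs, was the most abundant at 48.8, 41.9 and 55.6 TPM in the control libraries, 22.9, 15.2 and 30.1 TPM in the model libraries and 14.6, 21.2 and 21.1 TPM in the QJHTD libraries. No exposed library reached the lowest control, and the log2 fold change was −1.11 ± 0.24 (SE), with an adjusted p of 0.00254. Dnaaf1 had the largest fall, of 1.26, and Dnaaf5 the smallest, with a log2 fold change of −0.43. Dnaaf5 changed sign to 0.06 under median-ratio rescaling and to 0.15 in the recomputed TPM. Dnaaf2 was at 4.66, 4.81 and 4.95 TPM in C1 to C3 and 2.97, 2.22 and 3.50 TPM in M1 to M3, and fell by 0.59. Dnaaf3 did not pass the test (log2 fold change −0.61 ± 0.30 (SE), adjusted p = 0.0889), with M3 at 5.39 TPM above the control C2 at 4.54 TPM, and without M3 it did (−0.86, adjusted p = 0.0261). It overlaps the heart troponin gene Tnni3 on its own strand, and Tnni3 went from 132 ± 64.7 to 5.48 ± 5.41 TPM (SD, n = 3).

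The regulatory complexes between doublets and central pair fell throughout. The 3 genes of the nexin-dynein regulatory complex had the lowest median of any role, −1.64. Drc3 was at 31.6, 22.8 and 33.7 TPM in the control libraries, 10.4, 3.88 and 14.96 TPM in the model libraries and 4.70, 7.43 and 5.93 TPM in the QJHTD libraries. Drc1, which anchors the complex, had values of 15.1, 15.97 and 18.2 TPM in the control libraries, 4.13, 1.62 and 7.95 TPM in the model libraries and 1.93, 4.88 and 3.87 TPM in the QJHTD libraries. In both, the highest exposed library was M3 and it remained below the lowest control, with log2 fold changes of −1.64 ± 0.38 (SE) and −1.81 ± 0.41 (SE). Drc7 changed by −1.42. Central apparatus genes fell in 6 of 6 tested cases (median −1.13), led by Cfap65 at −1.76 and Cfap46 at −1.68. Cfap46 had the largest ratio of M3 to M2 of the cilium genes tested, 14.8. It was at 1.44, 0.220 and 3.25 TPM in M1, M2 and M3, so the ratio rests on a very low level in M2. Cfap69 and Cfap74 changed by −1.15 and −1.10. Cfap54, the smallest change of the group at −0.65 (adjusted p = 0.0364), had M3 at 2.19 TPM above C2 at 2.17 TPM. It did not pass with no filter (adjusted p = 0.0775), with a pseudocount of 0.1 (0.0515), with 2 groups fitted (0.0593), under the 3 scalings (0.182 to 0.417) or without C1, C3, M1 or M2 (0.0669 to 0.108).

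Radial spoke genes fell in 9 of 9 tested cases, with a median of −1.38. After median-ratio rescaling 5 were lower, against 29.6% of all genes. In the recomputed TPM 2 of the 9 were lower, with a median of −0.81, a share no larger than the 24.7% of all genes. Rsph1, a protein of the spoke head, was at 64.8, 47.7 and 72.9 TPM in the control libraries, 28.1, 11.5 and 32.5 TPM in the model libraries and 14.03, 21.01 and 20.8 TPM in the QJHTD libraries. C2 was the lowest control and M2 the lowest model library, and the groups stayed apart (log2 fold change −1.43 ± 0.35 (SE), adjusted p = 0.00517). Rsph9, also of the spoke head, fell by 1.17, and Rsph10b fell furthest, from 11.4 ± 2.00 to 2.31 ± 1.22 TPM (SD, n = 3). Rsph3a and Rsph3b are near-identical genes for a protein of the spoke stalk, so reads may be divided between them in ways the counting decides. Rsph3a had 28.3, 39.2 and 36.8 TPM in the control libraries, 24.3, 16.8 and 25.5 TPM in the model libraries and 16.6, 13.99 and 14.6 TPM in the QJHTD libraries. Rsph3b had 24.97, 15.5 and 22.2 TPM in the control libraries, 9.87, 7.83 and 11.8 TPM in the model libraries and 8.42, 8.73 and 8.98 TPM in the QJHTD libraries. C2 was the highest control library for Rsph3a and the lowest for Rsph3b, and their log2 fold changes were −0.63 and −1.01.

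Of the other Cfap genes, 9 of 9 tested fell, with a median of −1.24. After median-ratio rescaling 5 were lower and in the recomputed TPM 5, against 29.6% and 24.7% of all genes. Cfap299 had the largest fall, 1.58 on the log2 scale, and the 3 smallest falls were those of Cfap36, Cfap410 and Cfap97. Cfap36, the most abundant, went from 34.7, 28.2 and 34.00 TPM in the control libraries to 20.1, 12.99 and 25.3 TPM in the model libraries. Cfap410, a basal body protein, went from 11.3, 11.02 and 13.2 to 8.17, 6.12 and 8.33 TPM in the same libraries. Cfap97 changed least, with a log2 fold change of −0.39 ± 0.12 (SE), from 6.01 ± 0.569 to 4.35 ± 0.156 TPM (SD, n = 3), and it turned to 0.07 and 0.16 under median-ratio rescaling and in the recomputed TPM.

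Intraflagellar transport genes had a higher median than the axoneme genes, and their counts depended strongly on the scaling. Of 14 tested, 12 fell, against 3 after median-ratio rescaling, 4 after quantile normalization and 3 in the recomputed TPM, where the medians were −0.16, −0.30 and −0.07. Of all genes tested, 56.5% fell before rescaling, and 29.6%, 38.6% and 24.7% under these scalings, in that order. Under the scalings the transport genes were thus called lower no more often than all genes. In the values as deposited the median log2 fold change was −0.65, against −1.24 for the other 63 genes and −0.47 for all genes tested. Model levels were at a median of 61.4% of control in the transport genes and 34.4% in the others. This difference between the sets was not tested. Ift20, a small IFT-B subunit that also sits at the Golgi, was at 86.1, 81.3 and 89.3 TPM in the control libraries, 73.1, 81.5 and 76.5 TPM in the model libraries and 84.7, 68.6 and 79.1 TPM in the QJHTD libraries. The groups overlapped, and the log2 fold change of −0.15 ± 0.10 (SE) did not pass (adjusted p = 0.178). Relative to other scalings Ift20 was at 0.39 after median-ratio rescaling, at 0.03 after quantile normalization and at 0.49 in the recomputed TPM, and the first and the last of these passed the test as higher. Ift52, a core subunit of IFT-B, also missed the threshold (−0.28 ± 0.16 (SE), adjusted p = 0.132) and was at 0.23, 0.11 and 0.33 under the same scalings. Ift46, of the IFT-B core, and Ift57, of its outer part, changed by −0.65 and −0.74. Ift172, a large subunit of the outer part of IFT-B, was at 42.9, 31.5 and 42.3 TPM in the control libraries, 22.5, 12.4 and 27.9 TPM in the model libraries and 14.8, 18.6 and 18.8 TPM in the QJHTD libraries. Its model libraries were all below its controls, with a log2 fold change of −0.92 ± 0.26 (SE) and an adjusted p of 0.0107. Ift81, which binds tubulin with Ift74, had the largest fall of the IFT-B genes, 1.21 on the log2 scale, and Ift88, of the IFT-B core, changed by −1.10. Both lay near the median of −1.24 of the other 63 genes. The range of those genes, −2.55 to −0.34, also held Ift46, Ift57, Ift122, Ift140 and Ift172.

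Ift43, an IFT-A subunit, had the largest fall of the transport genes. It was at 94.3, 86.7 and 97.6 TPM in the control libraries, 25.2, 19.1 and 30.97 TPM in the model libraries and 18.2, 23.9 and 25.6 TPM in the QJHTD libraries. The control libraries lay within 86.7 to 97.6 TPM, and the exposed libraries between 18.2 and 30.97 TPM. The log2 fold change was −1.87 ± 0.18 (SE), with an adjusted p of 2.24e-05, and ran from −2.03 to −1.25 over the alternatives tried, all of which passed. The other IFT-A genes tested, Ift122 and Ift140, changed by −0.62 and −0.45, from 6.76 ± 0.640 and 7.91 ± 0.969 TPM in the control group (SD, n = 3). Ift140 shares 25890 bases with Tmem204 on the opposite strand, which fell from 94.7 ± 7.17 to 15.5 ± 1.14 TPM (SD, n = 3). Ift140 also changed sign to 0.02 and 0.11 under median-ratio rescaling and in the recomputed TPM.

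**Figure D2:**
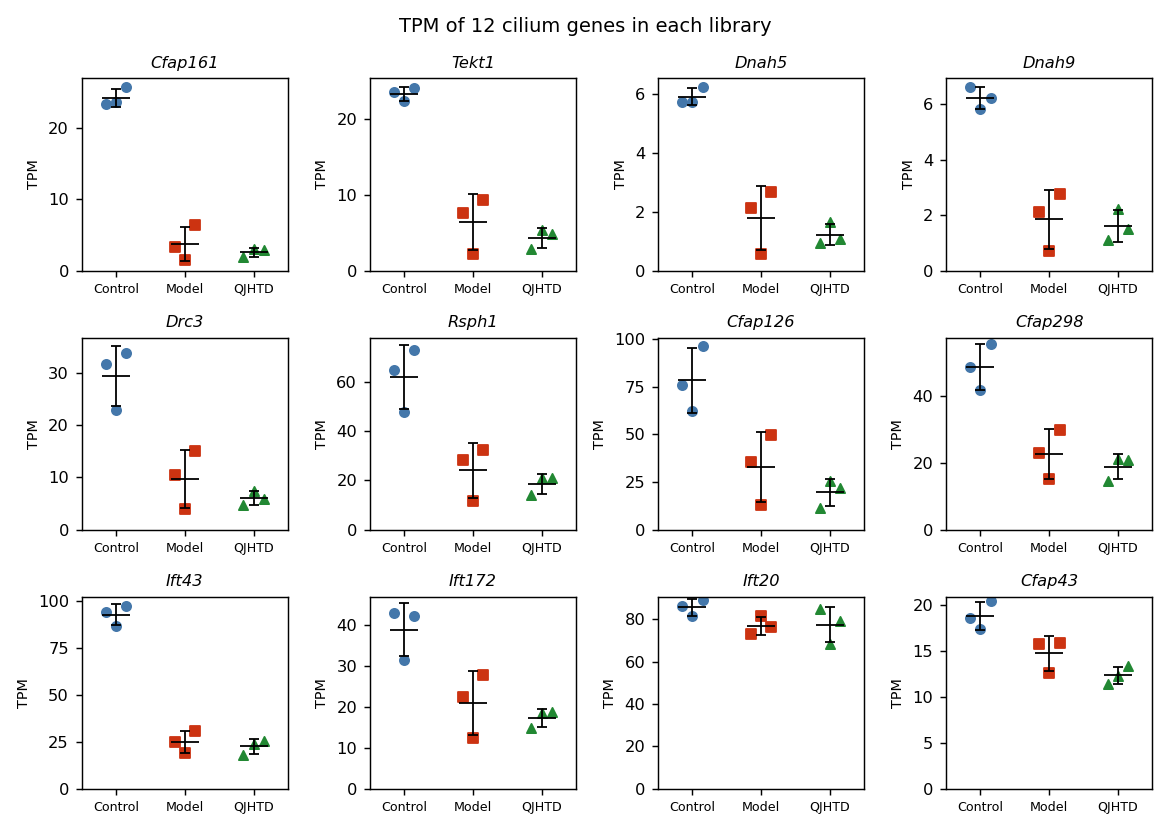
TPM of 12 genes in each of the 9 libraries (vertical axes from 0, linear), with the mean and SD of each group of 3 as bars. In every panel except that of Ift20 all control points stand above all exposed points, with a narrow gap for Ift172. Ift20 overlaps between groups, and Cfap43 falls by a small step from 18.8 to 14.7 TPM.

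Most genes of the same structures with other names fell as well. Of 37 further axoneme genes tested, 33 fell and 0 rose, with a median log2 fold change of −1.11. These axoneme genes include the intermediate chains Dnaic1, at 9.67, 10.9 and 13.01 TPM in the control libraries, 4.29, 0.910 and 5.54 TPM in the model libraries and 1.21, 2.73 and 2.48 TPM in the QJHTD libraries, and Dnaic2, at −1.42 on the log2 scale. Of 27 further transport genes tested, which hold motor subunits and BBSome cargo adaptors, 21 fell and 0 rose, with a median of −0.92. That was a larger fall than the median of −0.65 of the 14 IFT genes. After median-ratio rescaling 26 of the axoneme and 14 of the transport genes were lower, against 29.6% of all genes. In the recomputed TPM these numbers were 21 and 11, against 24.7% of all genes. The medians of these transport genes were then −0.46 and −0.39, against −0.16 and −0.07 for the IFT genes. Among the subunits of the kinesin that drives trains towards the tip, Kifap3 fell by 1.00, while Kif3a and Kif3b had log2 fold changes of −0.28 and 0.19 and did not pass, although Kif3b was called higher under all 3 scalings and Kif3a in the recomputed TPM. Of the dynein of the return trip, the subunit Dync2li1 fell by 1.10 and the heavy chain Dync2h1 by 0.56. Tctex1d2, also among the further transport genes, was called higher after median-ratio rescaling and in the recomputed TPM.

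To read the cilium genes against other genes of ciliated cells, the mean log2(TPM + 1) of the 16 ciliated-cell markers was subtracted from every gene in each library. All 16 markers fell between control and model, by a median of −1.88. Foxj1, the regulator of the motile cilium program, went from 63.1, 67.5 and 82.5 TPM in the control libraries to 37.2, 16.02 and 47.1 TPM in the model libraries. Relative to the markers, 20 of the 77 cilium genes were higher in the model group and 0 were lower, against 68.8% higher and 0.902% lower among all genes tested, and the medians were 0.66 and 1.34. Of the 20, 10 were among the 14 IFT genes (Ift20, Ift22, Ift27, Ift46, Ift52, Ift57, Ift74, Ift80, Ift122 and Ift140). The other 10 were Cfap36, Cfap43, Cfap54, Cfap97, Cfap410, Dnaaf2, Dnaaf3, Dnaaf5, Dnah8 and Rsph3a. The share among the IFT genes was near the 68.8% of all genes tested, and their relative median was 1.17, against 1.34 for all genes. Ift20, Ift52 and Cfap43 had the largest relative values, 1.67, 1.53 and 1.48. Ift43, at −0.05, and Drc1, at 0.00, were among the genes that did not pass. The count of 20 was 9 without C1, 13 without C2, 6 without C3 and 10 when only the control and model groups were fitted.

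Within the groups, most cilium genes varied together from library to library. M2 was the lowest of the 3 model libraries for 72 of the 77 genes, against 58.1% of all genes tested, and M3 was the highest for 70. Ift20, Ift22, Dnah2os, Cfap73 and Dnah8 were the 5 genes in which M2 was not the lowest. The level in M3 was a median of 2.83 times that in M2, against 1.12 over all genes. For the transport genes this ratio was 1.66, and for the dynein heavy chains 4.45. In the QJHTD group Q1 was the lowest for 53 of the 77 genes, against 59.0% of all genes. Segments took 42.9% and 43.7% of all TPM in M2 and Q1 and 36.2% to 37.8% in the other exposed libraries, and their part in this spread was not tested. Club-cell markers, of the secretory cells beside the ciliated cells, were lowest in M2 and Q1 too, at medians of 8.62% and 7.95% of control against 12.7% to 27.8% in the other exposed libraries. So were fibroblast and smooth muscle markers, at 15.9% and 14.6% against 19.2% to 30.4%. Basal-cell markers were lowest in M2 and Q1 within their groups. Endothelial and alveolar type 2 markers were not lowest in M2, at 19.6% and 92.7% against 17.9% and 74.8% in M3.

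**Figure D3:**
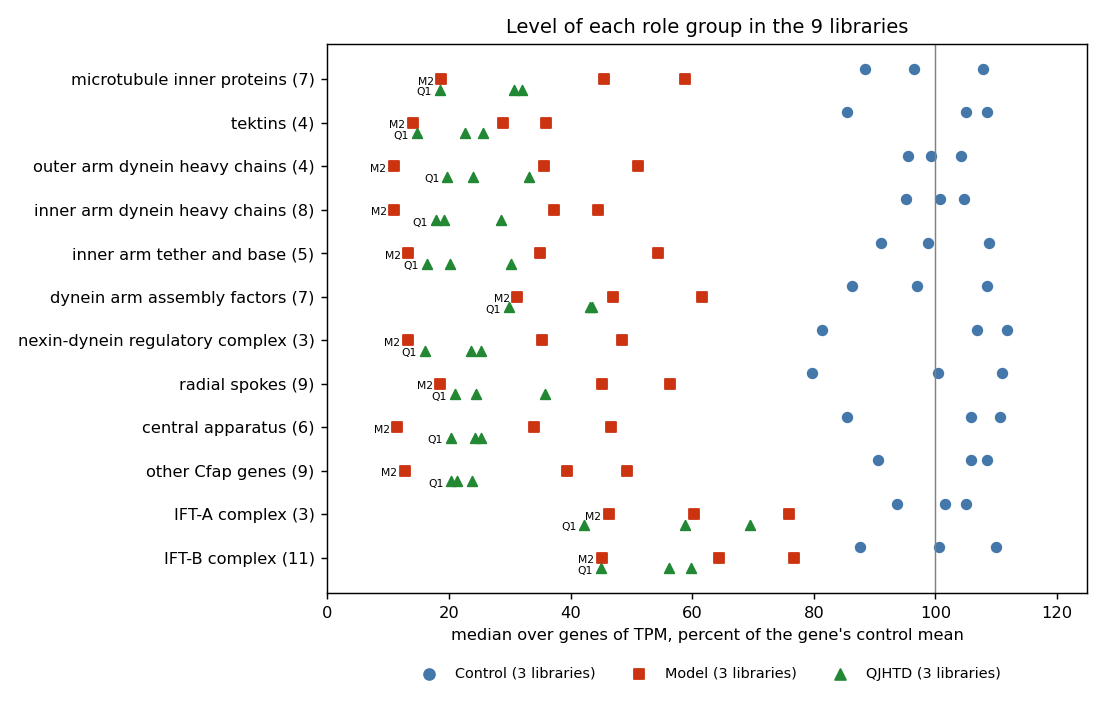
Median over the tested genes of each role (number in brackets) of TPM as a percent of the gene's control mean, for each of the 9 libraries. Controls lie between 79.7% and 112%, M2 is the lowest model library and Q1 the lowest QJHTD library in every role shown, and the IFT complexes stay above 40% in all 9 libraries.

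After the group means had been removed, 60 of the 77 genes correlated over 0.8 with the mean of the ciliated-cell markers across the 9 libraries (77.9%, against 8.99% of all genes), with medians of 0.918 for cilium genes and 0.34 for all genes. All genes of a library share its scaling and its depth, which is unknown, so these values describe likeness and carry no test. The genes most like the markers included Cfap126 (r = 0.99), Cfap36 (0.99) and Dnaaf1 (0.99). Ift20 (−0.45), Dnah2os (−0.41) and Dnah8 (0.29) were the least like them. Across the 77 genes the fall was nearly unrelated to gene length (Spearman rho 0.04) and to control level (−0.07).

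**Figure D4:**
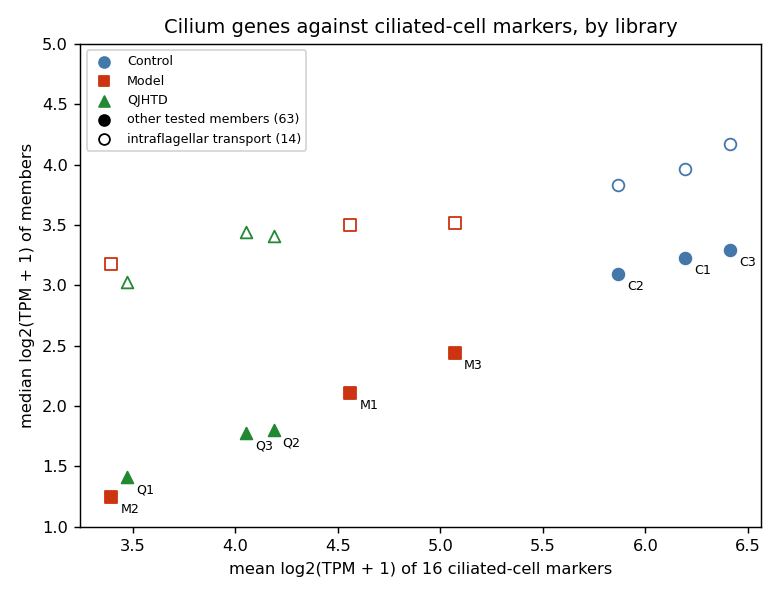
Median log2(TPM + 1) of the 63 tested axoneme and assembly genes (filled) and the 14 IFT genes (open) in each library against the mean of 16 ciliated-cell markers, all in log2(TPM + 1). The filled points run from 1.24 in M2 to 3.29 in C3, and the open points span a smaller range, from 3.03 in Q1 to 4.17 in C3.

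The decoction group is the comparison that asks whether treated lungs differed from untreated exposed lungs. Against control, 73 of the 77 genes were lower in the QJHTD group and 0 were higher, with a median log2 fold change of −1.35 (all genes −0.44, of which 53.7% were lower). The genes that did not pass were Dnah8, Ift20, Ift27 and Ift52. All 3 QJHTD libraries were below all controls for 74 of the genes, against 56.8% of all genes. Between QJHTD and model, limma called 0 of the 77, and 0.0124% of all genes (2 of 16080). At an unadjusted p under 0.05, 2 cilium genes were lower and 0 higher, against 2.74% of all genes that were lower. These were Cfap300, a dynein assembly factor, and Rsph3a. Cfap300 was at 1.97, 1.55 and 3.12 TPM in M1 to M3 and 1.10, 1.34 and 1.53 TPM in Q1 to Q3, and its log2 fold change between them was −0.44 ± 0.18 (SE), with an adjusted p of 0.710. For Rsph3a the log2 fold change between QJHTD and model was −0.51 ± 0.17 (SE), with an adjusted p of 0.670. They were also the 2 of the 77 genes whose model and QJHTD values did not overlap, against 12.3% of all genes.

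The values between QJHTD and model rested on single libraries. The log2 fold changes of the 77 genes ran from −0.59 to 0.35 with a median of −0.19, and 66 were negative, against 37.98% of all genes and a median of 0.05. Without M2 the median was −0.47 and 40 genes had an unadjusted p under 0.05, all lower, with 0 called after adjustment, and 5.3% of all genes were lower at that p with a median near 0. Without M3 the median was 0.03 and 0 genes had one, against 3.04% of all genes lower and a median of 0.07. Without M2 and Q1 together it was −0.34, with 25 such genes and again 0 called, against 3.4% of all genes lower and a median of 0.04. With 3 libraries a group, the SEs of the genes named here ran between 0.10 for Ift20 and 0.45 for Cfap126.

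Of the 8 genes not tested, Cfap97d1 and Rsph6a were listed at 0 in all 9 libraries. Tekt3 reached 1 TPM in 2 libraries only, at 2.58, 0.840 and 2.56 TPM in C1 to C3 and 0.380, 0.130 and 0.170 TPM in M1 to M3. Cfap47 reached it once, at 1.22 TPM in C3. Dnah14, Dnah17, Dnah7c and Ift88os stayed under 1 TPM in every library, with control means of 0.443, 0.230, 0.717 and 0.0933 TPM.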

How the data were processed

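RNA of 9 mouse lung samples was sequenced, and gene expression was analysed from the TPM values that the authors deposited, 1 column a library. The authors' notes name fastp and RSEM without versions, and a build GRCh38.p6, a human assembly, although the gene identifiers are mouse Ensembl ones. Counts and depth were not given. One line of the table was blank as received. The group mean columns, which equal the library means, were left out. Groups came from the sample labels. The cilium genes and all lists were chosen with earlier results of these data known.

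Analysis used limma 3.58.1 in R 4.3.3 on log2(TPM + 1), with an intensity trend and 3 groups in 1 fit (6 residual and 2.88 prior degrees of freedom). A gene was tested if 3 or more libraries reached 1 TPM, and an adjusted p under 0.05 was called. Fold changes on this scale understate low genes. The fit was first tested on simulated data. In each role the text names up to 4 genes with the highest mean TPM, those with the largest and smallest change, those called relative to the markers, and others where a count turned on them, chosen after their values were seen. Gene positions and overlaps came from GENCODE M21, in which 51 of the 85 genes overlap another gene, 24 of them one of at least 1 TPM. Other steps used pandas 2.3.3 and numpy 2.4.6 under Python 3.11.15, with figures from matplotlib 3.10.9.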

Additional observations from a re-analysis of the deposited data

How the results depend on the processing

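The alternatives were no filter, a minimum mean of 5 TPM, a pseudocount of 0.1, 3 scalings between libraries, a fit of 2 groups, no intensity trend, a replicate block, and libraries left out. Cilium genes lower in the model group numbered 74, and 64 (without M2) to 74 with 1 library left out, 41 of the 43 genes with a mean of at least 5 TPM, 45 after median-ratio rescaling and 38 in TPM computed again after segments, hemoglobin and mitochondrial genes were removed. The smaller number tested accounts for the 41, and for 40 in place of 73 lower in QJHTD than control. Those higher in the model group numbered 1 (Ift20) after median-ratio rescaling and 2 (Cfap43 and Ift20) with the recomputed TPM. Genes called relative to the ciliated-cell markers numbered 20, 10 with 2 groups fitted and 6 (without C3) to 29 (without M3) with 1 library left out. The cause was not tested. Between QJHTD and model 0 were called under every alternative.

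Between model and control, signs turned only under the scalings, in 6 of the 54 genes named by rule. After median-ratio rescaling the log2 fold changes were 0.18 for Cfap43, 0.0695 for Cfap97, 0.0561 for Dnaaf5, 0.0218 for Ift140, 0.39 for Ift20 and 0.23 for Ift52. After quantile normalization they were 0.0565 for Cfap43, 0.0327 for Ift20 and 0.11 for Ift52. With the recomputed TPM they were 0.28 for Cfap43, 0.16 for Cfap97, 0.15 for Dnaaf5, 0.11 for Ift140, 0.49 for Ift20 and 0.33 for Ift52. Replicate numbers did not pair the libraries, since same-numbered libraries correlated at −0.10 to 0.09 over 9 pairs. With the replicate block 72 genes were lower in the model, 73 in QJHTD against control, and 20 were called relative to the markers, and Ift140 no longer passed (adjusted p = 0.0589).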
